A study of Bos taurus with 2 samples.

Results

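Beta-defensin genes were followed in spermatozoa of high-fertile and low-fertile bulls. A member was any gene name on the array that starts with DEFB or BNBD, that is TAP, LAP or EBD, or whose array description contains the word defensin. This rule found 29 of the 32429 gene names, with 44 of the 51282 probes and 62 of the 61657 spots that were not controls. The rule used names and descriptions and no measured value.

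The study measured total RNA of spermatozoa from HF crossbred (Bos taurus) breeding bulls on 2 Agilent bovine 1-colour arrays, with 1 array for each fertility group (high and low). The labels do not give the number of bulls behind an array, and they name no treatment. With 1 array per group, no difference below has a replicate check and no p-value is given: each value describes these 2 arrays. In bulk RNA, fewer cells of a type and less RNA per cell cannot be told apart.

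Beta-defensins are small secreted cationic peptides held together by disulfide bonds, and they kill bacteria and fungi by damaging their membranes. Cattle have an enlarged family: some members were isolated from neutrophil granules, others from the airway, tongue and gut lining, and a further group is expressed along the male reproductive tract. Epididymal beta-defensins can be added to the surface of maturing spermatozoa, and the macaque sperm-coat protein DEFB126 is the best known of them. DEFB126 and DEFB129 were not analysed here. DEFB118, another epididymal sperm-binding member in primates, was represented by a gene model described as beta-defensin 118-like.

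Probes of 4 genes in the chromosome 27 group hold nearly the same stretch of sequence, and they are shown first because this limits which gene a signal can be assigned to. All sequences are printed 5′ to 3′ as the design columns of the deposited scanner tables give them, and positions are on build HGSC Btau_3.1. Each line below is a piece of 30 bases from a probe of 60, and the capitals mark the 15 bases that all 6 such probes share.
DEFB1 probe at chr27:7569347-7569406, plus strand: gcccttcgacagaacGTCTAAAATTTAAAC
DEFB7 probe at chr27:7372716-7372775, minus strand: gcccttcgacagaacGTCTAAAATTTAAAC
DEFB1 probe at chr27:7569343-7569402, plus strand: ggccttcgacagaaaGTCTAAAATTTAAAC
DEFB4A probe at chr27:6892240-6892299, plus strand: gcccttcaacacaccGTCTAAAATTTAAAC
DEFB5 probe at chr27:7609509-7609568, plus strand: gcccttcaacacaccGTCTAAAATTTAAAC
The piece of the DEFB7 probe equals that of the first DEFB1 probe at all 30 bases, and so does that of another DEFB1 probe at chr27:7569340-7569399. Counted from 1 at the left end of the piece, the other DEFB1 probe differs from the first by C2G and C15A. By their listed positions all these DEFB1 pieces cover the same bases of the build. The differing letters are therefore a mismatch between probes of 1 place, and its source was not tested. The DEFB4A and DEFB5 pieces equal each other and differ from the first DEFB1 piece by G8A, G12C and A14C. Over whole probes, the longest run shared by DEFB7 and DEFB1 was 52 bases, and that shared by DEFB4A and DEFB5 was 50 bases.

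Other members were read by probes at the end of their coding sequence, which are shown because the measured values of DEFB119 and DEFB124, and 1 of those of DEFB, come from them. Each probe below ends with a stop codon in an open frame, written in capitals.
DEFB probe at chr27:7132787-7132846, minus strand: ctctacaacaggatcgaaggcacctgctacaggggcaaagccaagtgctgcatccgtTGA
DEFB119 probe at chr13:61823098-61823157, minus strand: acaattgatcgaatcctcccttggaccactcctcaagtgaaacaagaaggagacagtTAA
DEFB124 probe at chr13:61901689-61901748, minus strand: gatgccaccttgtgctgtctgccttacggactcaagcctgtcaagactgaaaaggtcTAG
None of these 3 probes shared 16 or more bases in a row, on the same strand, with a probe of another gene name.

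Defensin signal was found on both arrays. A probe counted as measured on an array where the scanner software called at least 50% of its spots well above background, and a gene name where any of its probes was. Of the 29 names, 14 (48.3%) had a probe measured on both arrays, against 38% of all names. Of the 44 probes, 24 (54.5%) were measured on both arrays, against 28.9% of all probes. A further 3 names were measured on 1 array only, where 8.84% of all names were, and 12 on neither. The high-fertile array measured 15 names and the low-fertile array 16. The lowest spot signal called well above background was 22.5 units on the array of the high-fertile group and 30.3 units on the other. No member spot was saturated or marked as an outlier.

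**Figure D1:**
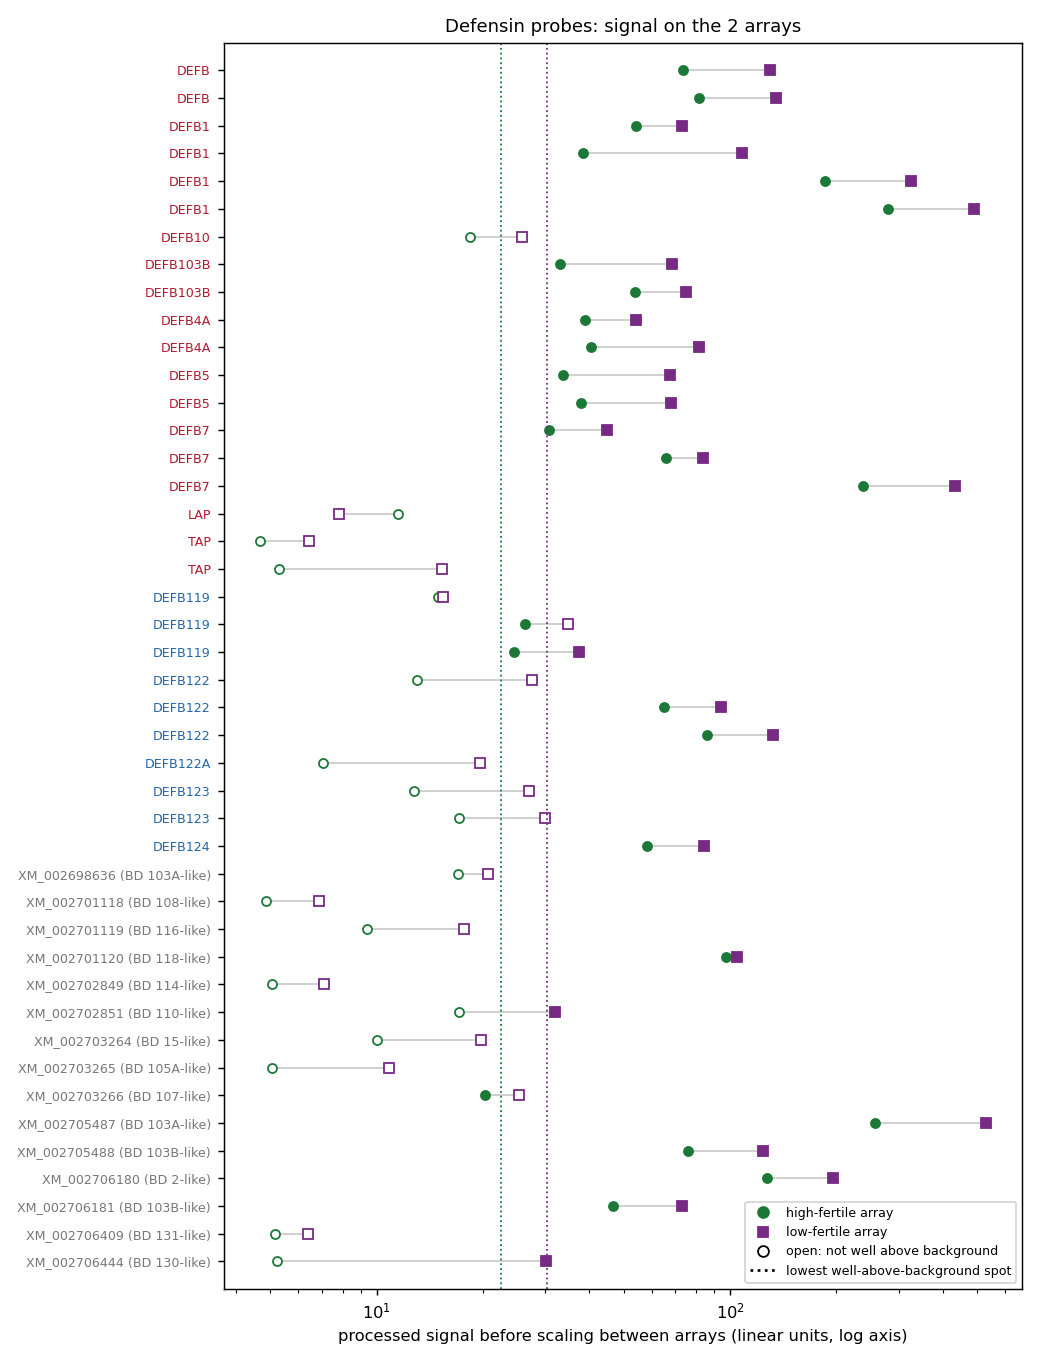
Processed signal of each of the 44 defensin probes (linear units on a log axis, before scaling between arrays) on the high-fertile array (circles) and the low-fertile array (squares), with spots of a probe averaged. Open symbols were not well above background, dotted lines mark each array's lowest well-above-background spot (22.5 and 30.3), and label colours mark chromosome 27 (red), chromosome 13 (blue) and unmapped gene models (grey).

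Nearly all measured defensin genes were lower on the high-fertile array, each by a small amount. Differences are log2 of the signal after each array was divided by the 75th percentile of its measured probes (142 units, high-fertile, and 177 units, low-fertile), high-fertile minus low-fertile, averaged over the measured probes of a name. Of the 14 measured names, 13 (92.9%) had a difference below 0, against 50.9% of all 12328 measured names. Their median difference was -0.36 (1.28-fold lower), against -0.01 over all measured names. Among the 10853 names whose mean level lay within the range of the defensin genes, the median was -0.02 and 52.6% were lower.

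None of the 14 defensin genes reached a 2-fold difference in either direction, where 2.51% of all measured names were at least 2-fold lower and 1.91% at least 2-fold higher. At 1.5-fold, 2 defensin genes were lower (9.04% of all names) and 0 were higher (7.53%). Of the 24 measured probes, 23 were lower on the high-fertile array (51.6% of all probes) and 1 of them at least 2-fold (2.86%). The probe differences ran from -1.18 to 0.22. The probes are not 24 separate observations of a condition, since several overlap or share sequence and all were read on the same 2 arrays.

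The technical spread can be set against single genes. Across 3713 probes printed in 2 spots, the difference varied between spots with an SD of 0.36, and across 5 such defensin probes with an SD of 0.12. Between probes of 1 name the SD was 0.42 over 1803 names and 0.29 over 7 defensin names. The defensin genes lower by more than the spot SD of 0.36 numbered 7 of 14, against 18.5% of all measured names. That SD is one of single spots, while a gene's difference may average several probes. The 7 are not separate observations: DEFB1, DEFB4A and DEFB5 among them have probes that share sequence. DEFB103B, also among them, had probes at -0.16 and -0.73. With a filter of at least 2 times the lowest measured signal it was at -0.16, and DEFB4A and DEFB5 had no value. None was higher by more than that, against 16.3%.

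**Figure D2:**
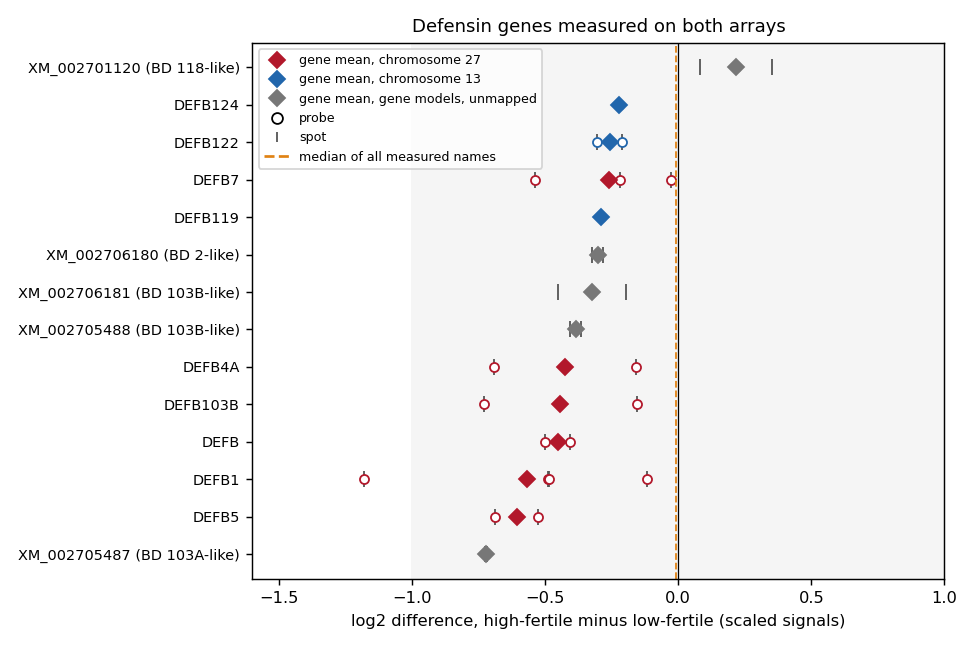
Log2 difference (high-fertile minus low-fertile, scaled signals) of the 14 defensin genes measured on both arrays, with gene means as diamonds, probes as open circles and single spots as ticks. The grey band spans 2-fold in either direction and the dashed line is the median of all measured names (-0.01); 13 of 14 gene means lie below 0 and all lie within the band.

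The 14 names with a position fell into 2 groups. Chromosome 27 held 9 names with 19 probes between positions 6127923 and 7609568, and chromosome 13 held 5 names with 10 probes between positions 61814798 and 61901748. The other 15 names were gene models with a transcript identifier, no position in the array tables and a defensin only in their description. On chromosome 27, 6 names were measured on both arrays and all 6 were lower on the high-fertile array, with a median of -0.45 and a range from -0.61 to -0.26. On chromosome 13, 3 names were measured and all 3 were lower, with a median of -0.26 and a range from -0.29 to -0.22. Of 5 measured gene models 4 were lower and 1 was higher, with a median of -0.33.

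**Figure D3:**
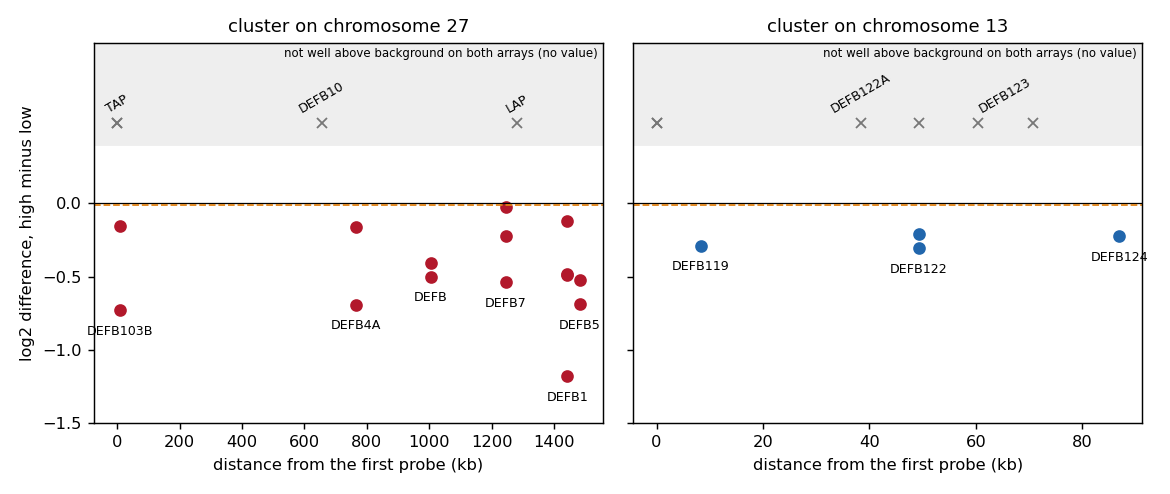
Log2 difference (high-fertile minus low-fertile) of each measured defensin probe against its distance in kb from the first probe of its chromosome group. Crosses in the grey strip mark probes that were not well above background on both arrays and have no value; the measured probes of both groups lie below 0, most widely spread for DEFB1 at the right of the chromosome 27 group.

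The epithelial members of the chromosome 27 group were partly measured. TAP, the tracheal antimicrobial peptide of the airway, had 2 probes with signals of 5.28 and 4.67 on the high-fertile and 15.3 and 6.42 on the low-fertile array. LAP, the lingual antimicrobial peptide, had 11.49 (high-fertile) and 7.82 (low-fertile). Neither TAP nor LAP was well above background on either array, so no fold is given.

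The gene that the array calls DEFB1 carries the accession that the RefSeq table of assembly ARS-UCD2.0 names EBD, the enteric beta-defensin, and that table's own DEFB1 is another gene. Its 4 probes read 279 (high-fertile) and 490.0 (low-fertile), 186 and 325, 54.0 and 73.2, and 38.3 and 108. All 4 were lower on the high-fertile array, with a mean difference of -0.57 (1.48-fold, SD 0.44 over probes). The first 3, of which that at 54.0 and 73.2 has the differing letters, lie in the shared sequence shown above and overlap each other. Their differences were -0.49, -0.48 and -0.12. The last, at chr27:7569269-7569328 on the plus strand, begins ctgtttcacgccctcagtaaaatgctgcag and is the only DEFB1 probe that shares no run of 16 bases with another gene name. It showed the largest difference of any measured defensin probe, -1.18 (2.27-fold), from 1 spot on each array. Its high-fertile signal of 38.3 was near that array's lowest measured spot of 22.5. A filter of at least 2 times the lowest measured signal left this probe out, and DEFB1 was then at -0.36.

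DEFB103B, a defensin of skin and mucosa that is also known in dogs as a ligand of the melanocortin receptor in coat colour, was read by probes of opposite strands. RefSeq gives its accession to a gene without a DEFB symbol that lies next to TAP and to SPAG11B, an epididymal defensin-like gene, in the table's order of protein-coding genes. The probe of the annotated transcript, at chr27:6138332-6138391 on the minus strand, read 53.8 (high-fertile) and 74.9 (low-fertile), a difference of -0.16. The probe of an expressed sequence tag on the plus strand read 33.1 and 68.5, a difference of -0.73. Both strands gave signal above background, and the lower value was on the high-fertile array for each. The probes overlap by 23 bases, shown here as the reason that the name holds signal from both strands.
DEFB103B minus-strand probe, first 23 bases: acaaaggtattattgcaaaataa
DEFB103B plus-strand probe, first 23 bases: ttattttgcaataatacctttgt
These pieces are reverse complements of each other. The mean difference of the name was -0.44 (SD 0.40 over 2 probes).

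The members first known from neutrophil granules were measured except DEFB10. DEFB4A read 40.4 (high-fertile) and 81.5 (low-fertile) with 1 probe, and 38.9 and 54.2 with the other, a mean difference of -0.43 (1.34-fold, SD 0.38). DEFB5 read 33.7 and 67.7, and 37.9 and 68.2, a mean difference of -0.61 (1.52-fold, SD 0.11). Both DEFB5 probes were lower on the high-fertile array, and both shared sequence with DEFB4A, by 50 and by 35 bases.

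DEFB7 read 239 (high-fertile) and 432 (low-fertile) with the probe that matches DEFB1. Its other probes read 30.8 and 44.8, and 65.9 and 83.8. The differences were -0.54, -0.22 and -0.03, so the largest came from the shared sequence and the smallest from the probe taken from an expressed sequence tag (mean -0.26, SD 0.26). The probe at -0.22 shares a run of 16 bases with a TAP probe. Only the DEFB7 probe at -0.03 shares no such run with another gene name. DEFB10 read 18.4 (high-fertile) and 25.8 (low-fertile) and was not well above background on either. DEFB, which has no number in its symbol, read 81.6 and 134.9 with 1 probe and 73.4 and 129.6 with the coding-end probe shown above. Its differences of -0.41 and -0.50 were close to each other (mean -0.45, 1.37-fold, SD 0.07), and neither probe shared a run of 16 bases with another gene name on the same strand.

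The chromosome 13 group holds genes known mainly from the testis and epididymis, and its measured members differed little between the arrays. DEFB124 read 58.1 (high-fertile) and 84.6 (low-fertile) with its only probe, a difference of -0.22 (1.17-fold). DEFB122 read 65.1 and 94.2, and 86.1 and 132.8, with probes that overlap by 52 bases, a mean difference of -0.26 (1.20-fold, SD 0.07). The remaining DEFB122 probe, at the coding end, read 12.96 and 27.5 and was not well above background. All 3 measured names of this group lay within the spot SD of 0.36.

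DEFB119 was measured by 1 of its 3 probes. That probe read 24.5 (high-fertile) and 37.4 (low-fertile), a difference of -0.29 (1.22-fold) close to each array's limit. A probe printed in 4 spots was well above background on 3 of 4 spots of the high-fertile and 1 of 4 of the low-fertile array, with mean signals of 26.2 and 34.8. The spots on the low-fertile array ran from 27.9 to 45.1 and those on the high-fertile array from 23.7 to 28.8, so DEFB119 stood at the edge of what the arrays resolved. DEFB122A read 7.04 and 19.6, and DEFB123 12.7 and 26.99, and 17.0 and 29.96. Neither was well above background on either array.

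Among the gene models, those described as like beta-defensins 103A, 103B and 2 were measured and lower on the high-fertile array. XM_002705487, described as beta 103A-like, had the largest difference of the 14 names as processed here, though not without the sharing probes (DEFB1 at -1.18). Its spots read 251 and 265 on the high-fertile and 516 and 547 on the low-fertile array, spot differences of -0.72 and -0.73 (1.65-fold lower). Its probe begins caaaggacaagggaactggggacaacggcc and shares no run of 16 bases with another name. XM_002705488, described as 103B-like, read 82.9 and 69.9 on the high-fertile and 133 and 116 on the low-fertile array, a difference of -0.38 (SD 0.03 over spots). For these models every low-fertile spot was brighter than every high-fertile spot.

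XM_002706180, described as beta-defensin 2-like, read 132 and 123 on the high-fertile and 206 and 187 on the low-fertile array, a difference of -0.30 (SD 0.03). XM_002706181, another 103B-like model, read 56.3 and 38.6 on the high-fertile and 80.7 and 66.0 on the low-fertile array, a difference of -0.33 (SD 0.18). Its probe has a GC content of 81.7%, the highest of the measured defensin probes, whose median was 45%. The gene identifiers of all 5 measured models are without an entry in the RefSeq table used here, so their names rest on the array's descriptions alone, where the name follows a note on the probe's next best match.

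The only measured defensin gene that was higher on the high-fertile array was XM_002701120, the beta-defensin 118-like model. Its spots read 105 and 90.5 on the high-fertile and 124 and 88.5 on the low-fertile array, scaled differences of 0.08 and 0.35. The mean was 0.22 (1.16-fold, SD 0.19 over spots), within the spot SD of 0.36, and before scaling the signals of the 2 arrays overlapped. Its probe begins gagactcctgctcctgacttttactgtcct. Its described name points to DEFB118, a sperm-binding defensin of the epididymis in primates. The measured chromosome 13 members, also from a group known mainly from the testis and epididymis, were lower on the high-fertile array.

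The gene models measured on 1 array only rested on single spots. For these a bound is given, the bright array against the higher of the dim array's lowest measured probe mean (11.7 high-fertile, 14.5 low-fertile) and the probe's own signal there. These probe means lie below the lowest measured spots of 22.5 and 30.3, since a measured probe may include a dim spot. XM_002706444, described as 130-like, read 4.96 and 5.46 on the high-fertile and 12.5 and 72.9 on the low-fertile array, at least 2.06-fold lower on the high-fertile array, but at least 1.07-fold with the lowest measured spot as the floor. XM_002702851, described as 110-like, read 17.2 and 16.9 on the high-fertile and 17.9 and 57.4 on the low-fertile array, at least 1.51-fold lower, or 1.14-fold with that floor. In each, 1 of 2 low-fertile spots was bright and the other was not, and the bright spot lay in a patch where 3 and 5 of its 8 neighbouring spots differed at least 2-fold the same way. Such patches held 2 of the 62 defensin spots and 0.845% of all spots. XM_002703266, described as 107-like, was measured on the high-fertile array through 1 spot of 26.4, and its bound was 1.001-fold, and below 1 with that floor. A bound of at least 2-fold was reached by 1 of the 3 names with the probe floor and by 0 with the spot floor; with the probe floor it was reached by 31.3% of all names measured on 1 array only and 41.8% of those measured on the low-fertile array only.

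On neither array were the remaining 7 gene models well above background. The brightest of them relative to the lowest measured spot was XM_002698636, described as 103A-like, with 15.1 and 19.0 on the high-fertile and 21.8 and 19.6 on the low-fertile array. XM_002701119, described as 116-like and named DEFB116 in the RefSeq table, read 8.81 and 9.998 on the high-fertile and 20.3 and 15.3 on the low-fertile array. XM_002706409, described as 131-like, was among the dimmest, with 5.69 and 4.63 on the high-fertile and 6.13 and 6.62 on the low-fertile array. The others were described as like beta-defensins 15, 105A, 108 and 114. These signals set only an upper limit on the transcripts and show no absence.

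Probes that share sequence with another gene name and probes that do not were mostly lower on the high-fertile array. Of the 44 defensin probes, 13 shared a run of 16 or more bases with another defensin name and none with a name outside the family, counted on the same strand. The 9 measured sharing probes were all lower, with a median of -0.49. Of the 15 measured probes without such a run, 14 were lower, with a median of -0.30. These 15 are not all separate: the DEFB122 probes among them overlap by 52 bases. The DEFB103B probes among them overlap by 23 bases on opposite strands. The 6 probes with the common 15 bases ran from -0.69 to -0.12, so probes with the same stretch still differed from each other.

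The letters AATAAA, the usual signal for adding a poly(A) tail, were searched on the strand of each probe, since oligo-dT priming starts at the tail. They stood in 8 of 44 defensin probes (18.2%), against 8.35% of all probes. The 1 of these 8 that was not measured, a DEFB123 probe, holds the letters within an open frame that runs on to a stop codon. The count is thus one of letters and not of tail signals. Among measured probes, the 7 defensin probes with AATAAA had a median difference of -0.48 and those without had -0.30. All 6 probes with the common 15 bases are among these 7, so this split largely repeats the one by shared sequence. Over all measured probes the medians were 0.06 with AATAAA and -0.02 without. The lower defensin values thus occurred in probes with and without these letters, while all probes with AATAAA were lower in 43.2% and those without in 52.5% of cases.

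The genes for other antimicrobial peptides were measured on both sides of 0. Of a list of 40 genes for other antimicrobial peptides and proteins, 36 were on the array and 21 were measured, of which 13 were lower and 8 higher on the high-fertile array, with a median of -0.07. BPIFA1, a secreted protein of the airway lining, was the only one past 2-fold, with 39.7 (high-fertile) and 99.7 (low-fertile) (-1.01). CATHL5, a cathelicidin of neutrophil granules, followed at -0.73. LCN2, which binds bacterial siderophores, and S100A12, a calcium-binding protein of neutrophils, were each at 0.38. Of 26 sensor and signalling genes linked to beta-defensins, 11 were measured, 5 lower and 6 higher, with a median of 0.01. The ends of this list were the transcription factor JUN at 0.47, the vitamin D receptor VDR at 0.25, the bacterial cell-wall sensor NOD1 at -0.50 and the interleukin receptor IL22RA1 at -0.31.

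Genes of the epididymis and accessory glands were mostly not measured on either array, as were most names on the array. Of a list of 39 such genes, 23 were on the array, 4 were measured on both arrays, 4 on 1 array and 15 on neither. Of all 32429 names, 12328 were measured on both arrays, 2867 on 1 array and 17234 on neither. The 4 measured genes were all lower on the high-fertile array, with a median of -0.25. BSP1, a seminal plasma protein that binds the sperm membrane, read 53.7 (high-fertile) and 98.5 (low-fertile) (-0.55). PTGDS, a prostaglandin synthase, read 27.2 and 44.6 (-0.39). GPX5, an epididymal peroxidase, and WFDC2, a protease inhibitor, were at -0.10 and -0.06. SPAG11B, CRISP1 and LCN6, known from epididymal epithelium, were among the 15 with no probe measured on either array.

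Markers of the cells that could carry defensin RNA were measured too. Of 21 sperm markers 13 were measured, 5 lower and 8 higher, with a median of 0.15 and a range from -1.10 (PRM1, a protamine) to 1.22 (TNP2, a transition protein). Of 23 leukocyte markers 15 were measured, 6 lower and 9 higher, with a median of 0.10. PTPRC, the pan-leukocyte phosphatase, read 539 (high-fertile) and 959.9 (low-fertile) over 2 of its 4 probes. Its difference of -0.51 (SD 0.46 over probes) was the lowest of the list. CD4, the helper T cell co-receptor, was the highest at 0.61, with 1615 (high-fertile) and 1318 (low-fertile) from 1 of its 5 probes. The neutrophil genes MPO and S100A9 had no probe measured on either array, while ELANE was at 0.14 and CXCR2 at -0.12. Of 14 epithelial markers 8 were measured, 2 lower and 6 higher, with a median of 0.17 and a range from -0.17 to 0.34. Of 12 genes of testis somatic cells 8 were measured, with a median of -0.04 and a range from -0.43 to 0.60, and of 6 erythroid genes 3, with a median of 0.16. The part of these cells in the defensin values was not tested.

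**Figure D4:**
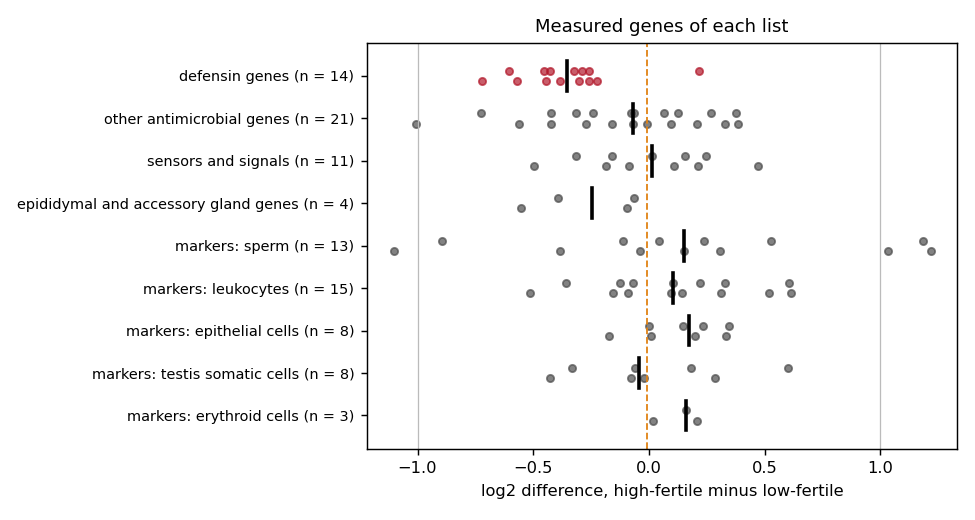
Log2 difference (high-fertile minus low-fertile) of every measured gene of each list, 1 point per gene, with a bar at the list's median and a dashed line at the median of all measured names (-0.01). The 14 defensin genes (median -0.36) lie mostly below 0, while the points of the longer lists lie on both sides of 0; vertical grey lines mark 2-fold.

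The distance between the defensin median and the median of all measured names was -0.35. Scaling by 1 constant per array cannot change this distance, so the scalings by percentile, median or spike-ins do not test it. It was -0.35 with quantile normalization and -0.18 with normexp background correction of the unsubtracted signals, neither of which is a constant shift. The normexp run added an offset of 50 units to each signal, and an added constant shrinks log2 differences most for dim probes. How much of the change came from that offset was not tested. The sign of a small difference depended on the scaling, since before scaling the 7 spike-in probes differed by 0.27 (SD 0.09) and the median gene by -0.33. With spike-in scaling all 14 defensin genes were lower, with a median of -0.95, and so were 92.7% of all names, with a median of -0.60. With normexp the defensin median was -0.13, and 12 of 14 genes were lower, with DEFB119 at 0.00.

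**Figure D5:**
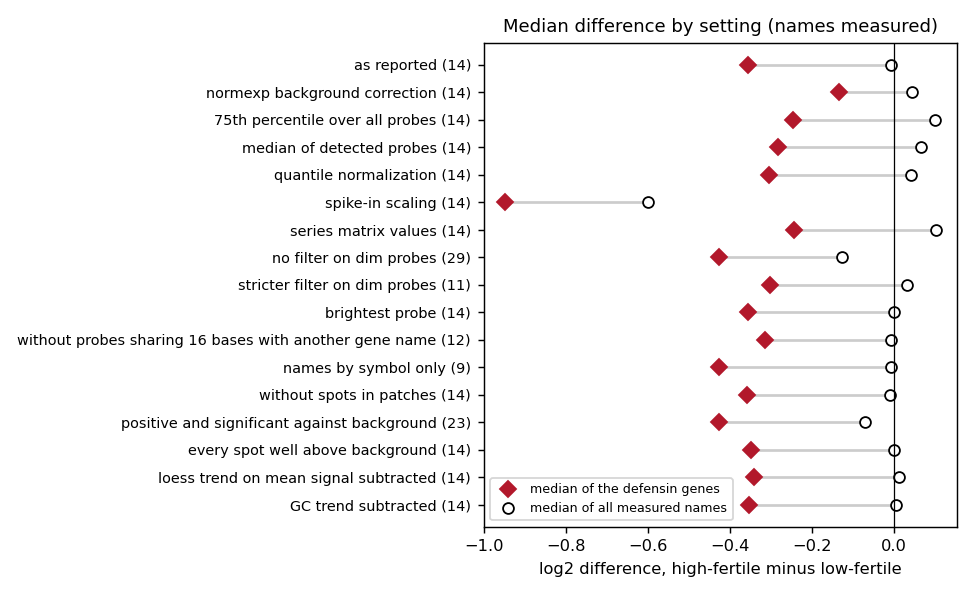
Median log2 difference (high-fertile minus low-fertile) of the measured defensin genes (diamonds) and of all measured names (open circles) under each processing setting, with the number of defensin names in parentheses. The defensin median lies below that of all names in every setting shown, from -0.95 with spike-in scaling to -0.13 with normexp background correction.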

How the data were processed

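Total RNA of spermatozoa, primed with oligo-dT and labelled with Cy3 per the labels' protocols, was read on 2 arrays, 1 per fertility group as the labels give it. The deposited scanner tables hold spot intensities on a linear scale, made with Agilent Feature Extraction 11.5.1.1 per the file headers, and their positions refer to build HGSC Btau_3.1; the processed signal is background-subtracted. The sources used here give no description of a normalization between arrays by the authors. Values in the deposited series matrix are log2: 98.6% of probes in each column lay within 0.01 of the log2 processed signal plus a constant (-5.12, high-fertile; -5.55, low-fertile), and the column medians were -1.43 and -1.37. The constants differ, so each matrix column carries a shift of its own. The scale of the matrix values is therefore known, genes were not centred, and a larger value means a brighter signal.

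Log2 processed signals were taken per spot without control and outlier spots, the log2 75th percentile over probes measured on both arrays was subtracted, and spots and then probes of a name were averaged (Python 3.11.15, pandas 2.3.3, numpy 2.4.6; statsmodels 0.14.6 for loess; limma 3.58.1 in R 4.3.3 for normexp with an offset of 50). The computation was tested on simulated data. On the high-fertile array 33.2% and on the low-fertile array 32.9% of spots were well above background. A single array per group limits the precision, and no test was run.

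The members, gene lists and rules were chosen with earlier results of these data known. Named were every defensin gene measured on at least 1 array, TAP, LAP and DEFB1, and the genes at both ends of the antimicrobial, sensor and epididymal lists; cell markers given by name were chosen after their values were seen. Names follow the array; RefSeq symbols come from the table of assembly ARS-UCD2.0, used for names and gene order only. Of the 15 described gene models 6 had their gene identifier in that table. Protein and promoter sequences were not used here.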

Additional observations from a re-analysis of the deposited data

How the results depend on the processing

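The number of defensin genes at least 2-fold higher on the high-fertile array was 0 under every alternative run. The number at least 2-fold lower (0 as reported) was 6 with spike-in scaling, 2 with no filter on dim probes, 2 at a 1.5-fold threshold and 1 without the probes that share 16 bases with another gene name, where DEFB1 rests on its probe at -1.18. The median (-0.36 as reported) was -0.95 with spike-in scaling and moved by less than the spot SD under the other alternatives. The number of genes measured on both arrays (14 as reported) was 29 with no filter, 23 with spots that were positive and significant against background, and 9 with names taken from symbols only. The number of names on 1 array only with a bound of at least 2-fold (1 as reported) was 0 with the median of detected probes, with normexp, with all probes in the 75th percentile, with quantile normalization, with symbols only, without spots in patches with the lowest measured spot as the floor and with every spot required to be well above background, and 2 with spike-in scaling and at 1.5-fold.

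With no filter 24 of 29 names were lower, against 64.7% of all names. The defensin median minus that of all names was -0.31 without the sharing probes, -0.42 with symbols only and -0.34 with the stricter filter of at least 2 times the lowest measured signal. Single genes that moved by more than the spot SD of 0.36 were DEFB4A (-0.07) and DEFB5 (-0.17) with normexp, XM_002706181 (-0.77) with the trend on GC content subtracted, DEFB1 as above, and all 14 with spike-in scaling, where XM_002701120 was at -0.38. Requiring every spot, taking the lowest spot as the floor, subtracting a loess trend on mean signal and subtracting the GC trend were chosen after seeing the data. The signal over background is a limit for DEFB119 and for the 15 names not measured on both arrays, but not only for these. With the stricter filter 11 names were left, and DEFB119, DEFB4A and DEFB5 had no value. There DEFB1 was at -0.36, without its probe at -1.18, and DEFB103B was at -0.16. DEFB7 was at -0.28, and the other names left did not change. No paired analysis was possible because each group has 1 array.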
